A study of Oryza sativa with 4 samples.

Results

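The enzymes that break down sugar to pyruvate and carry it into the tricarboxylic acid (TCA) cycle were followed across developing grain and root of 2 rice cultivars. A locus was included when the description deposited with it contained pyruvate, enolase, aldolase, phosphofructokinase, glyceraldehyde-3-phosphate, hexokinase, phosphoglycerate, triosephosphate, malate dehydrogenase, citrate synthase, aconitate or isocitrate dehydrogenase. This took 125 of the 31453 loci listed in any library. By their descriptions 103 of them fall into 15 steps of the pathway. The other 22 carry one of the words but belong elsewhere, among them transaldolases and the aldolases that open aromatic amino acid synthesis. None of the descriptions matched named a pyruvate dehydrogenase or an isocitrate dehydrogenase, so those steps are not described.

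The 4 groups, each of 1 library, were developing grain of Sharbati and of Lalat and root of Sharbati and of Lalat. The labels give a grain iron content of 24.88 ppm for Sharbati and of 7.8 ppm for Lalat, and the series set a cultivar with higher against one with lower grain iron. All plants grew in pots of soil and manure in a net house, and both organs were taken 15 days after panicle emergence, during grain filling. Poly(A) RNA was sequenced from both ends. The number of plants behind a library was not given in the sources used here. With no replicate, every difference given is one between 2 libraries and no test was made.

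Glycolysis splits hexose phosphates into triose phosphates, oxidises them and passes phosphoenolpyruvate (PEP) to pyruvate, yielding ATP and NADH. The TCA cycle then oxidises the carbon of pyruvate in mitochondria. In filling cereal endosperm, where oxygen can be low, these enzymes supply energy and carbon skeletons for starch, protein and oil, and pyruvate phosphate dikinase (PPDK), which makes PEP from pyruvate reversibly, is a known abundant endosperm protein. In roots, pyruvate decarboxylase opens the branch to ethanol that plants use when oxygen is short.

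Levels are FPKM, which divides fragments by transcript length and library size, so they can be compared between loci per length. The grain pair and the root pair come from separate tables, which may have been normalized in separate runs. Levels set side by side across organs carry that limit. Of the 125 loci, 120 stood above 0 in Sharbati grain, 118 in Lalat grain, 90 in Sharbati root and 113 in Lalat root. Their summed level was 6739 FPKM in Sharbati grain, 4386 in Lalat grain, 4794 in Sharbati root and 10731 in Lalat root, or 0.778%, 0.689%, 0.870% and 1.22% of all FPKM of the library. The FPKM worth of 1 fragment, read from loci whose partner library was listed at 0, was 0.0302 FPKM for Sharbati grain, 0.0402 for Lalat grain, 1.07 for Sharbati root and 0.105 for Lalat root at the median, so Sharbati root was the shallowest library. Storage protein transcripts (43 glutelin and prolamin loci), which mark endosperm, summed to 310234 FPKM in Sharbati grain, 182084 in Lalat grain, 180 in Sharbati root and 7037 in Lalat root, with 15, 15, 17 and 3 of the loci at 0 or not listed. The root silicon transporter Lsi1 (LOC_Os02g51110) stood at 0.0700 FPKM in Sharbati grain, 0.490 in Lalat grain, 143 in Sharbati root and 88.0 in Lalat root, so it was high in the 2 libraries labelled root. A second root marker, RCc3 (LOC_Os02g44310), was low throughout, at 0.234 FPKM in Sharbati grain, 0.0654 in Lalat grain, 0 in Sharbati root and 6.39 in Lalat root. In bulk RNA of this kind, fewer cells of a type and less RNA per cell cannot be told apart.

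Across the steps, aldolase had the highest summed level in both grain libraries. The 7 fructose-bisphosphate aldolase loci, which cleave fructose bisphosphate into triose phosphates, summed to 1823 FPKM in Sharbati grain and 858 FPKM in Lalat grain. Glyceraldehyde-3-phosphate dehydrogenase (GAPDH), which oxidises the triose phosphate, summed to 1054 FPKM in Sharbati grain and 575 FPKM in Lalat grain. Phosphoglycerate kinase, which takes the first ATP from it, summed to 1030 FPKM in Sharbati grain and 547 FPKM in Lalat grain. In Lalat grain the PPDK step, at 635 FPKM, lay above the last 2 of these. The entry to the pathway stood far lower: hexokinase summed to 20.9 FPKM in Sharbati grain and 25 FPKM in Lalat grain, and ATP-dependent phosphofructokinase to 8.24 FPKM in Sharbati grain and 6.36 FPKM in Lalat grain. Both sums stood higher in root. ATP-dependent phosphofructokinase summed to 72.7 FPKM in Sharbati root and 227 FPKM in Lalat root, and hexokinase to 63.0 FPKM in Sharbati root and 276 FPKM in Lalat root. A pyrophosphate-dependent enzyme that can replace phosphofructokinase is not in these sums. Its leading loci, described below with other genes of the pathway, stood far higher in grain than the ATP-dependent ones. Of the 15 steps, 11 had the higher sum in Sharbati grain than in Lalat grain, 2 of them by at least 2-fold, and 1 was at least 2-fold lower. With the general offset between the grain libraries removed (the median ratio over genes that reached 1 FPKM in both), 12 sums were higher, 6 of them by at least 2-fold, and 0 were at least 2-fold lower. Scaling the grain libraries to equal totals without the 100 highest genes gave 11 higher sums, 2 of them by at least 2-fold. By that scaling 0 were at least 2-fold lower, so the number of steps past 2-fold depended on the scaling. In root all 15 sums were lower in Sharbati than in Lalat, 14 of them by at least 2-fold, but with the general offset between the root libraries removed 1 sum was higher, 14 were lower and 5 of those were at least 2-fold lower. The plot of summed levels per step sets the 4 libraries side by side.

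**Figure D1:**
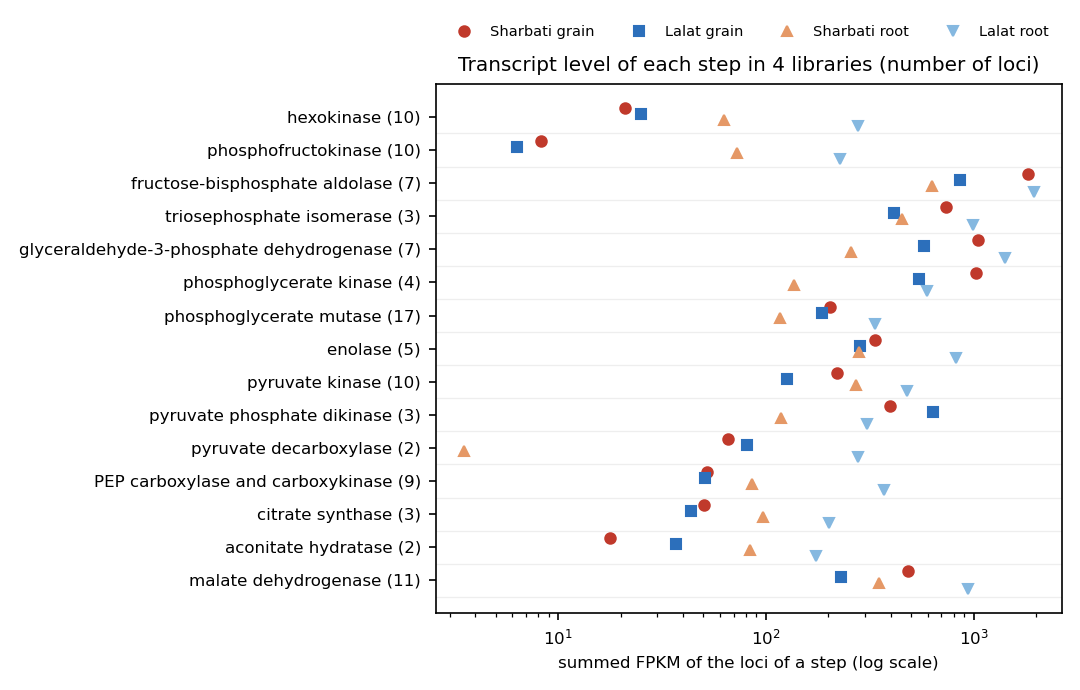
Summed FPKM of the loci of each of 15 steps (horizontal axis, log scale) in the 4 libraries, 2 of grain and 2 of root, with the number of loci in brackets. Aldolase reached 1823 FPKM in Sharbati grain against 858 in Lalat grain, and pyruvate decarboxylase stood at 3.52 FPKM in Sharbati root against 278 in Lalat root.

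In the grain comparison, 86 of the 125 loci were above 0 in both libraries and at 1 FPKM or more in at least 1 of them. The remaining loci comprised 3 not listed for grain, 6 listed at 0 in 1 library and 30 under 1 FPKM. Ratios are log2((Sharbati FPKM + 1)/(Lalat FPKM + 1)), and a locus was counted as apart at 2-fold or more on this scale. By that count 10 loci were higher in Sharbati grain and 18 lower, where 6.31% of the 13417 genes compared were higher and 17.4% lower. The median ratio was -0.23 for these loci and -0.35 for all genes. The picture changed with level. Among the 29 loci at 10 FPKM or more in both grain libraries, 7 were higher (24.1%) and 2 lower with a median of 0.27, while 7.19% of the 3645 genes at that level were higher and 8.89% lower with a median of -0.05. Among the 18 loci at 50 FPKM or more in at least 1 grain library, 6 were higher and 0 lower, where 12.9% of the genes at that level were higher and 15.1% lower. Only 2 of the 18 lower loci therefore reached 10 FPKM in both grain libraries. The general offset between the grain libraries was small, a median ratio of -0.29 over genes that reached 1 FPKM in both, and with it removed 16 of the loci were at least 2-fold higher and 12 lower, where 9.75% of all genes were higher and 11.8% lower. The storage protein sum was also the higher one in Sharbati grain, at 310234 FPKM against 182084 in Lalat grain. Prolamin and glutelin went opposite ways within it. The 28 prolamin loci were higher in Sharbati grain, with a sum of 298770 FPKM against 150553 for Lalat grain. The 15 glutelin loci were lower in Sharbati grain, with a sum of 11464 FPKM against 31531 for Lalat grain. The 7 oleosin loci, which mark embryo and aleurone, summed to 119 FPKM in Sharbati grain and 239 FPKM in Lalat grain. The part of such tissue differences in the ratios of the enzymes was not tested.

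**Figure D2:**
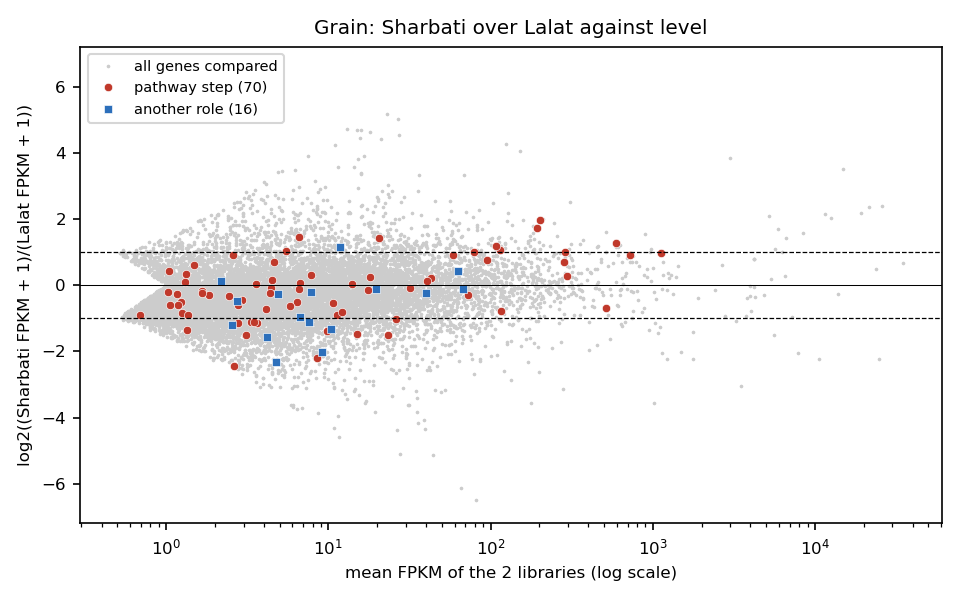
Log2 ratio of Sharbati over Lalat grain (vertical axis, 1 FPKM added to each level) against the mean FPKM of the 2 libraries (log scale) for all genes compared (grey), the 70 compared loci of a pathway step (red) and the 16 with another role (blue). Dashed lines mark 2-fold, 3 genes that are not members lie above the axis limit of 7, and the red points at high level sit above 0 more often than below it.

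Aldolase held both the most abundant locus in grain and the highest ratio of an abundant one. LOC_Os01g67860 (chromosome 1, 39433330 to 39435713, in the coordinates of the deposited tables, for which a genome build was not given in the sources used here) had 1485 FPKM in Sharbati grain and 756 FPKM in Lalat grain (ratio 0.97). LOC_Os05g33380 (chromosome 5, 19606727 to 19608916) had 322 FPKM in Sharbati grain and 82.1 FPKM in Lalat grain, a ratio of 1.96 and the highest of all members at 10 FPKM or more. It is also 1 of the 5 compared loci that the authors' deposited table calls different between the grain libraries, with a p-value of 0.0025. That table calls 7.35% of all genes compared in grain. LOC_Os01g02880 had 10.2 FPKM in Sharbati grain and 3.04 FPKM in Lalat grain (ratio 1.47). LOC_Os11g07020 went the other way, with 4.95 FPKM in Sharbati grain and 14.7 FPKM in Lalat grain (ratio -1.40), so the isozymes did not share a direction.

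Triosephosphate isomerase, which interconverts the 2 trioses, was carried by a pair of cytosolic loci in grain. LOC_Os01g05490 had 382 FPKM in Sharbati grain and 191 FPKM in Lalat grain, which fell just short of 2-fold on the scale used. LOC_Os01g62420 had 349 FPKM in Sharbati grain and 216 FPKM in Lalat grain (ratio 0.69). The plastid locus LOC_Os09g36450 was scarce, with 3.93 FPKM in Sharbati grain and 4.77 FPKM in Lalat grain.

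For GAPDH, LOC_Os02g38920 (chromosome 2, 23527517 to 23530251) led in grain with 843 FPKM in Sharbati and 348 FPKM in Lalat (ratio 1.28). LOC_Os04g40950 had 119 FPKM in Sharbati grain and 69.5 FPKM in Lalat grain (ratio 0.77). LOC_Os08g03290 was lower in Sharbati grain, at 84.8 FPKM against 147 in Lalat grain (ratio -0.79). The leading locus therefore held 80.0% of the step's summed level in Sharbati grain and 60.5% in Lalat grain.

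Phosphoglycerate kinase was carried by LOC_Os02g07260 (chromosome 2, 3727493 to 3731349), with 952 FPKM in Sharbati grain and 504 FPKM in Lalat grain (ratio 0.92). The next locus, LOC_Os06g45710, had 76.8 FPKM in Sharbati grain and 40.4 FPKM in Lalat grain (ratio 0.91). Neither passed 2-fold.

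Phosphoglycerate mutase, which moves the phosphate within phosphoglycerate, is the largest family here with 17 loci, and the plant glycolytic form is the 2,3-bisphosphoglycerate-independent enzyme. Of 4 loci described as that form, LOC_Os01g60190 (chromosome 1, 34804283 to 34808095) led with 155 FPKM in Sharbati grain and 73.4 FPKM in Lalat grain (ratio 1.07). LOC_Os12g35040, also of the independent form, was lower, with 2.39 FPKM in Sharbati grain and 14.6 FPKM in Lalat grain (ratio -2.20), and the authors' deposited table gives it a p-value of 0.000311. Among the loci described as phosphoglycerate mutase alone, LOC_Os05g04960 had 11.6 FPKM in Sharbati grain and 34.7 FPKM in Lalat grain (ratio -1.50). LOC_Os01g47190 had 0.126 FPKM in Sharbati grain and 5.09 FPKM in Lalat grain, and the authors' deposited table calls it different with a p-value of 1.29e-05. Of the 13 family loci compared in grain, 1 was at least 2-fold higher in Sharbati and 5 were lower, where 6.31% of all genes were higher and 17.4% lower. The family's summed level stood at 204 FPKM in Sharbati grain and 186 FPKM in Lalat grain.

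Enolase, which makes PEP, differed little: LOC_Os10g08550 had 325 FPKM in Sharbati grain and 270 FPKM in Lalat grain (ratio 0.27). Pyruvate kinase, which uses PEP to make ATP and pyruvate, differed more. LOC_Os12g05110 (chromosome 12, 2245321 to 2249836) had 150 FPKM in Sharbati grain and 64.9 FPKM in Lalat grain (ratio 1.20). LOC_Os11g05110 (chromosome 11, 2239209 to 2243604) had 30.5 FPKM in Sharbati grain and 10.6 FPKM in Lalat grain (ratio 1.44). These 2 loci lie in the known duplicated segment shared by the ends of chromosomes 11 and 12, so reads may have been divided between close copies and the level of each alone is uncertain. The pyruvate kinase-like locus LOC_Os09g22410 was lower, with 7.44 FPKM in Sharbati grain and 22.5 FPKM in Lalat grain (ratio -1.48).

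PPDK, which runs opposite to pyruvate kinase in its PEP-forming direction, did not follow it in grain. LOC_Os05g33570 (chromosome 5, 19718505 to 19737857) had 394 FPKM in Sharbati grain and 634 FPKM in Lalat grain (ratio -0.69, within 2-fold). It was the only abundant locus of its step in grain, with 99.6% of the step's level in Sharbati and 99.8% in Lalat. The second PPDK locus, LOC_Os03g31750, stood at 1.35 FPKM in Sharbati grain and 0.745 FPKM in Lalat grain. The summed level of pyruvate kinase was 220 FPKM in Sharbati grain and 127 FPKM in Lalat grain. That of the PPDK step, which also counts the PPDK regulatory protein LOC_Os07g34640, was 396 FPKM in Sharbati grain and 635 FPKM in Lalat grain. Of the other enzymes next to PEP and pyruvate, PEP carboxykinase LOC_Os03g15050 had 42.6 FPKM in Sharbati grain and 38.7 FPKM in Lalat grain. Pyruvate decarboxylase LOC_Os03g18220 had 65.6 FPKM in Sharbati grain and 80.5 FPKM in Lalat grain. Both were within 2-fold.

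The steps named for TCA cycle enzymes were uneven in grain. Citrate synthase, which condenses acetyl-CoA with oxaloacetate, was within 2-fold, and its leading locus LOC_Os02g13840 had 46.4 FPKM in Sharbati grain and 39.4 FPKM in Lalat grain. Aconitate hydratase, an iron-sulfur enzyme that isomerises citrate, was the step at least 2-fold lower in Sharbati grain: LOC_Os08g09200 (chromosome 8, 5327530 to 5334951) had 16.9 FPKM in Sharbati grain and 35.3 FPKM in Lalat grain (ratio -1.02). With the general offset between the grain libraries removed, its summed level was no longer 2-fold lower. Loci described as lactate/malate dehydrogenase, which by that wording may oxidise either acid, were higher at the abundant end. The wording names no compartment, so whether these loci act in the TCA cycle is not known here. LOC_Os10g33800 (chromosome 10, 17913817 to 17917850) had 297 FPKM in Sharbati grain and 88.6 FPKM in Lalat grain (ratio 1.73), and LOC_Os12g43630 had 107 FPKM in Sharbati grain and 52.3 FPKM in Lalat grain (ratio 1.02). The next, LOC_Os01g46070, had 30.9 FPKM in Sharbati grain and 32.6 FPKM in Lalat grain, and did not differ by 2-fold.

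Among the hexokinases, which phosphorylate glucose, LOC_Os05g09500 had 7.72 FPKM in Sharbati grain and 3.22 FPKM in Lalat grain (ratio 1.05). LOC_Os01g09460 had 0.324 FPKM in Sharbati grain and 2.36 FPKM in Lalat grain (ratio -1.35), a difference the authors' deposited table calls with a p-value of 0.00248. LOC_Os01g53930 was also lower, with 1.74 FPKM in Sharbati grain and 4.91 FPKM in Lalat grain (ratio -1.11). The leading phosphofructokinase, LOC_Os05g44922, had 3.71 FPKM in Sharbati grain and 1.49 FPKM in Lalat grain (ratio 0.92).

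Of the 16 compared loci caught by a word but with another role, 1 was at least 2-fold higher in Sharbati grain and 6 were lower, where 6.31% of all genes were higher and 17.4% lower. The exception was the phosphate/PEP translocator-related locus LOC_Os08g01410, with 16.7 FPKM in Sharbati grain and 7.04 FPKM in Lalat grain (ratio 1.14). A second translocator-related locus, LOC_Os01g07730, had 1.63 FPKM in Sharbati grain and 6.76 FPKM in Lalat grain (ratio -1.56). Dihydroneopterin aldolase, an enzyme of folate synthesis, was lower at LOC_Os08g44210, with 3.03 FPKM in Sharbati grain and 15.2 FPKM in Lalat grain (ratio -2.01). At a second such locus, LOC_Os09g38759, the level was 0.907 FPKM in Sharbati grain and 8.58 FPKM in Lalat grain (ratio -2.33), and the authors' deposited table calls this locus too. The 4-hydroxy-2-oxovalerate aldolase LOC_Os09g36030 had 5.47 FPKM in Sharbati grain and 15.2 FPKM in Lalat grain (ratio -1.33).

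In the root comparison 90 loci were compared. Of the rest, 12 were not listed for root and 23 were listed at 0 in Sharbati root, none in Lalat root. By the same 2-fold count, 2 were higher in Sharbati root and 48 lower, where 5.51% of the 13653 genes compared were higher and 46.7% lower. The median ratio was -1.08, against -0.92 over all genes, and the 2 kinds of locus differed: the median was -1.26 for the 76 loci of a pathway step, of which 45 were lower, and -0.21 for the 14 with another role, of which 3 were lower. Genes that reached 1 FPKM in both root libraries had a median ratio of -0.999. With that offset removed, 12 of the loci were at least 2-fold higher, 26 lower, and their median was -0.10, where 17.5% of all genes were higher and 20.8% lower. Counted without that correction at 10 FPKM or more in both root libraries, 1 of 50 was higher and 23 lower, where 2.27% of such genes were higher and 36.6% lower. At 50 FPKM or more in at least 1 root library, 1 of 42 was higher and 27 lower, where the shares over all such genes were 4.15% and 52.5%. In Sharbati root 1 fragment was worth between 0.223 and 7.14 FPKM over the central 90% of loci, and 33 of the 90 loci compared lay under 7.14 FPKM there, which makes their ratios imprecise.

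**Figure D3:**
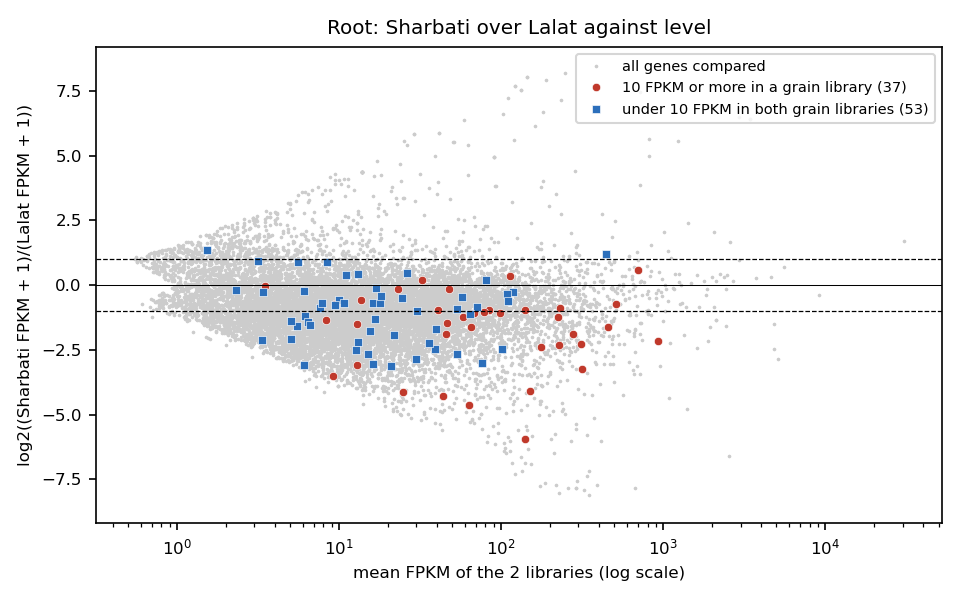
Log2 ratio of Sharbati over Lalat root (vertical axis, 1 FPKM added to each level) against the mean FPKM of the 2 libraries (log scale) for all genes compared (grey), the 37 members at 10 FPKM or more in a grain library (red) and the 53 members under 10 FPKM in both (blue). Dashed lines mark 2-fold, and most members lie below 0 with the grey cloud.

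The lowest ratio belonged to pyruvate decarboxylase. LOC_Os03g18220 (chromosome 3, 10217795 to 10220748) had 3.52 FPKM in Sharbati root and 278 FPKM in Lalat root, a ratio of -5.95. The authors' deposited table calls it different with a p-value of 8.48e-05. The next was PPDK LOC_Os05g33570, with 3.94 FPKM in Sharbati root and 122 FPKM in Lalat root (ratio -4.64), and a p-value of 0.000409 in the authors' deposited table. These were the only 2 of the 90 compared loci called in root by the authors' deposited table, which calls 1.35% of all genes compared there. Then came L-allo-threonine aldolase LOC_Os04g43650, an amino acid enzyme outside the pathway, with 3.37 FPKM in Sharbati root and 83.7 FPKM in Lalat root (ratio -4.28). The pyruvate kinase-like LOC_Os09g22410 had 1.80 FPKM in Sharbati root and 47.5 FPKM in Lalat root (ratio -4.12). Triosephosphate isomerase LOC_Os01g62420 had 15.7 FPKM in Sharbati root and 285 FPKM in Lalat root (ratio -4.10). Malate dehydrogenase LOC_Os01g61380 completed the 6 lowest, with 0.635 FPKM in Sharbati root and 17.8 FPKM in Lalat root (ratio -3.53). With the general offset removed, the first 2 of these still stood at -5.11 (LOC_Os03g18220) and -3.80 (LOC_Os05g33570). Of the 6, all but LOC_Os01g62420 lay under 7.14 FPKM in Sharbati root, within the range worth of 1 fragment there. The size and order of their ratios are therefore imprecise.

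Storage transcripts differed in the same direction between the root libraries. The glutelin and prolamin sum was 0.0581% of its Sharbati grain level in Sharbati root and 3.86% of its Lalat grain level in Lalat root. PPDK LOC_Os05g33570 in Lalat root stood at 19.3% of its Lalat grain level. Pyruvate decarboxylase in Lalat root stood at 345% of its Lalat grain level, above grain, and triosephosphate isomerase LOC_Os01g62420 at 132%. The part of grain-type RNA in the root ratios was not tested. Among the 53 loci under 10 FPKM in both grain libraries, 2 were higher in Sharbati root and 24 lower with a median of -0.89, where 7.41% of the 9185 such genes were higher and 45.2% lower with a median of -0.87.

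Within several steps the isozymes departed from each other in root. The second PPDK locus LOC_Os03g31750 (chromosome 3, 18153142 to 18160127) had 96.0 FPKM in Sharbati root and 122 FPKM in Lalat root (ratio -0.35), while the grain-type PPDK differed by 31.1-fold in FPKM. The PPDK regulatory protein LOC_Os07g34640, which switches the enzyme by phosphorylation, had 18.2 FPKM in Sharbati root and 61.3 FPKM in Lalat root (ratio -1.70). Triosephosphate isomerase LOC_Os01g05490 had 390 FPKM in Sharbati root and 639 FPKM in Lalat root (ratio -0.71), far closer than its cytosolic partner. With the general offset removed, the PPDK locus LOC_Os03g31750 stood at 0.65 and the isomerase LOC_Os01g05490 at 0.29, above 0 instead of below it. Pyruvate kinase in root was led by LOC_Os04g58110, with 87.1 FPKM in Sharbati root and 133 FPKM in Lalat root (ratio -0.60), and LOC_Os01g16960 had 85.3 FPKM in Sharbati root and 74.9 FPKM in Lalat root (ratio 0.19). Both stood at 5.96 FPKM or less in the 2 grain libraries.

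Many of the abundant grain loci were lower in Sharbati root by more than the general offset of -0.999. Aldolase LOC_Os01g67860 had 339 FPKM in Sharbati root and 1522 FPKM in Lalat root (ratio -2.17). GAPDH LOC_Os02g38920 had 118 FPKM in Sharbati root and 434 FPKM in Lalat root (ratio -1.87), and LOC_Os04g40950 had 58.7 FPKM in Sharbati root and 568 FPKM in Lalat root (ratio -3.25). Phosphoglycerate kinase LOC_Os02g07260 had 106 FPKM in Sharbati root and 520 FPKM in Lalat root (ratio -2.28), and enolase LOC_Os10g08550 had 223 FPKM in Sharbati root and 694 FPKM in Lalat root (ratio -1.63). PEP carboxykinase LOC_Os03g15050 had 55.1 FPKM in Sharbati root and 296 FPKM in Lalat root (ratio -2.40). The leading hexokinase and phosphofructokinase loci, though under 10 FPKM in both grain libraries, were also lower by more than the offset. Hexokinase LOC_Os05g09500 had 30.8 FPKM in Sharbati root and 173 FPKM in Lalat root (ratio -2.45). Phosphofructokinase LOC_Os05g44922 had 14 FPKM in Sharbati root and 93.3 FPKM in Lalat root (ratio -2.65). Other abundant grain loci lay closer than the offset: aldolase LOC_Os05g33380 had a ratio of -0.88 and phosphoglycerate mutase LOC_Os01g60190 one of -0.94, beside triosephosphate isomerase LOC_Os01g05490 at -0.71.

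Against these, a few loci were at or above the Lalat level in Sharbati root. Transaldolase LOC_Os01g70170, of the pentose phosphate pathway, had 617 FPKM in Sharbati root and 264 FPKM in Lalat root (ratio 1.22) and was 1 of the 2 loci at least 2-fold higher. The other was GAPDH LOC_Os03g03720, with 2.65 FPKM in Sharbati root and 0.425 FPKM in Lalat root, a level near that of a single fragment in Sharbati root. The aldolase LOC_Os07g42960, described as phospho-2-dehydro-3-deoxyheptonate aldolase, the entry to aromatic amino acids, had 833 FPKM in Sharbati root and 560 FPKM in Lalat root (ratio 0.57). Aldolase LOC_Os01g02880 had 127 FPKM in Sharbati root and 100 FPKM in Lalat root (ratio 0.34). Phosphofructokinase LOC_Os01g09570 (30.7 FPKM in Sharbati root, 21.6 in Lalat root), PEP carboxylase LOC_Os09g14670 (12.7 FPKM in Sharbati root, 9.53 in Lalat root) and pyruvate kinase LOC_Os03g46910 (11.3 FPKM in Sharbati root, 5.6 in Lalat root) also stood higher in Sharbati root without reaching 2-fold on the scale used. Once the offset was removed, these 3 stood at 1.47 (LOC_Os01g09570), 1.32 (LOC_Os09g14670) and 1.83 (LOC_Os03g46910), and aldolase LOC_Os01g02880 at 1.34 and LOC_Os07g42960 at 1.57, all past 2-fold.

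The leading citrate synthase and aconitate hydratase loci lay near the offset in root, and the malate dehydrogenases lay mostly below it. Citrate synthase LOC_Os02g13840 had 51.1 FPKM in Sharbati root and 107 FPKM in Lalat root (ratio -1.05). Aconitate hydratase LOC_Os08g09200 had 63.5 FPKM in Sharbati root and 135 FPKM in Lalat root (ratio -1.07). Malate dehydrogenase LOC_Os10g33800 had 133 FPKM in Sharbati root and 313 FPKM in Lalat root (ratio -1.23), and LOC_Os02g01510, nearly absent from grain at 0.0652 FPKM in Sharbati and 0.122 FPKM in Lalat, had 16.1 FPKM in Sharbati root and 135 FPKM in Lalat root. Without the offset, LOC_Os02g01510 stood at -2.04. The 10 malate dehydrogenase loci compared in root had a median ratio of -1.76, against -0.92 over all genes. Of them, 7 were lower by 2-fold or more, where 46.7% of all genes compared in root were.

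Of the 23 loci listed at 0 in Sharbati root, 5 reached 10 FPKM in Lalat root. Phosphoglycerate mutase LOC_Os11g04320 was listed at 0 in Sharbati root and at 15.8 FPKM in Lalat root. A locus of the same description near the end of chromosome 12, LOC_Os12g04120, had 6.90 FPKM in Sharbati root and 12.1 FPKM in Lalat root, and whether the 2 are close copies that shared reads was not tested. The others were 2-dehydro-3-deoxyphosphooctonate aldolase LOC_Os12g10784 at 15.3 FPKM, aldolase LOC_Os08g02700 at 12.1, the 2-phosphoglycerate kinase-related LOC_Os09g39870 at 11.0 and pyruvate kinase LOC_Os11g10980 at 10.8 in Lalat root. Given the depth of Sharbati root, these zeros do not show that the transcripts were absent.

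Set side by side, 73 loci were compared between cultivars in both organs, of which 7 differed by 2-fold or more both ways: higher in Sharbati than Lalat grain, and lower in Sharbati than Lalat root. They were hexokinase LOC_Os05g09500, GAPDH LOC_Os02g38920, the pyruvate kinases LOC_Os11g05110 and LOC_Os12g05110, malate dehydrogenases LOC_Os10g33800 and LOC_Os12g43630 and the translocator-related LOC_Os08g01410. Among all genes compared in both organs 2.83% were apart in opposite directions. With the general offsets removed, only hexokinase LOC_Os05g09500 of these 7 was still apart in both organs. The count was then again 7, where 3.48% of all genes were apart in this way, and it took in aldolase LOC_Os01g67860, phosphoglycerate kinase LOC_Os02g07260, GAPDH LOC_Os04g40950, phosphofructokinase LOC_Os05g44922 and, lower in grain and higher in root, the translocator-related LOC_Os01g07730 and dihydroneopterin aldolase LOC_Os09g38759.

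Taking the organs of one cultivar at a time, 89 loci were compared in Sharbati and 105 in Lalat. In Sharbati, 20 were at least 2-fold higher in grain than in root and 45 lower, where 14% of the 12648 genes compared were higher and 51% lower. The median ratio of grain over root was -1.01 for the loci and -1.04 for all genes. In Lalat, 5 were higher in grain and 67 lower, where 7.11% of the 17533 genes compared were higher and 59.7% lower. The medians were -1.81 for the loci and -1.30 for all genes. At 10 FPKM or more in both organs the cultivars stood further apart. In Sharbati, 10 of 26 such loci were higher in grain and 4 lower, where 16.9% of such genes were higher and 28.3% lower. In Lalat, 2 of 36 were higher in grain and 17 lower, where 7.48% of such genes were higher and 42.7% lower. Of 88 loci with both ratios, 69 (78.4%) had the higher ratio of grain over root in Sharbati, where 72.2% of all genes did. With the general offset between organs removed in each cultivar, 58 (65.9%) did, where 53.3% of all genes did. The general offsets between organs were -0.53 in Sharbati and -1.20 in Lalat over genes that reached 1 FPKM in both.

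**Figure D4:**
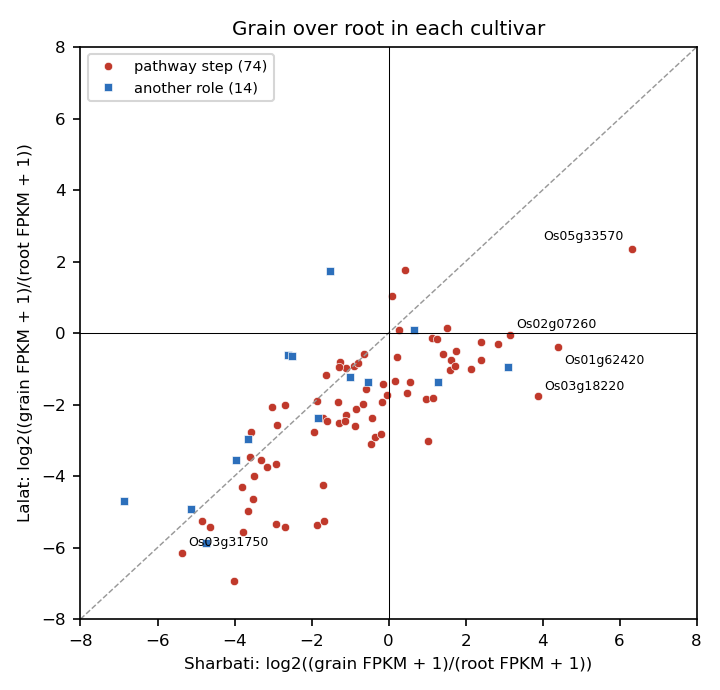
Log2 ratio of grain over root (1 FPKM added to each level) in Sharbati (horizontal axis) and Lalat (vertical axis) for 74 loci of a pathway step (red) and 14 with another role (blue), with the line of equal ratios dashed and 5 loci named. Of the 88 loci, 69 (78.4%) lie below the line, where 72.2% of all genes would, and LOC_Os05g33570 is far to the right at 6.32 in Sharbati and 2.36 in Lalat.

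The 2 PPDK loci stood on opposite sides of the organ comparison. LOC_Os05g33570 had 394 FPKM in Sharbati grain against 3.94 in Sharbati root (ratio 6.32), and 634 in Lalat grain against 122 in Lalat root (ratio 2.36). LOC_Os03g31750 was the mirror image, with 1.35 FPKM in Sharbati grain against 96.0 in Sharbati root (ratio -5.37), and 0.745 in Lalat grain against 122 in Lalat root (ratio -6.14). Its regulatory protein LOC_Os07g34640 followed the root-type locus, with 0.406 FPKM in Sharbati grain and 0.309 FPKM in Lalat grain.

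Some loci were high in grain over root in Sharbati but not in Lalat. Triosephosphate isomerase LOC_Os01g62420 had a ratio of 4.39 in Sharbati, with 349 FPKM in grain against 15.7 in root, and -0.40 in Lalat, with 216 FPKM in grain against 285 in root. Pyruvate decarboxylase LOC_Os03g18220 had a ratio of 3.88 in Sharbati and -1.77 in Lalat. Phosphoglycerate kinase LOC_Os02g07260 had 3.15 in Sharbati and -0.05 in Lalat. In each case the Sharbati root level was the low one of the 4.

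The loci lowest in grain relative to root came from several steps. Pyruvate kinase LOC_Os01g16960 had 1.99 FPKM in Sharbati grain against 85.3 in Sharbati root (ratio -4.85). Transaldolase LOC_Os01g70170 had 4.25 FPKM in Sharbati grain against 617 in Sharbati root (ratio -6.88), and LOC_Os03g27230, another phospho-2-dehydro-3-deoxyheptonate aldolase, had 2.10 FPKM in Sharbati grain against 108 in Sharbati root (ratio -5.13). In Lalat, malate dehydrogenase LOC_Os02g01510 (ratio -6.92), ATP-citrate synthase subunit LOC_Os01g19450 (ratio -5.88), which makes cytosolic acetyl-CoA, and the PPDK regulatory protein (ratio -5.57) joined LOC_Os03g31750. The few loci at least 2-fold higher in Lalat grain than in Lalat root included, besides PPDK, 4-hydroxy-2-oxovalerate aldolase LOC_Os09g36030 (ratio 2.26), aldolase LOC_Os11g07020 (ratio 1.78) and phosphoglycerate mutase LOC_Os05g04960 (ratio 1.03).

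The leading locus of a step was mostly constant. In 9 of the 15 steps the same locus led in all 4 libraries, in 13 it was the same in both grain libraries and in 12 in both root libraries. Aldolase LOC_Os01g67860 held 81.5% of its step in Sharbati grain, 88.1% in Lalat grain, 53.6% in Sharbati root and 78.4% in Lalat root. Pyruvate kinase changed hands between organs: LOC_Os12g05110 held 68.1% in Sharbati grain and 51.2% in Lalat grain, but 16.1% in Sharbati root and 19.2% in Lalat root, where LOC_Os04g58110 led with 32.1% in Sharbati and 27.6% in Lalat. PPDK LOC_Os03g31750 held 81.3% of its step in Sharbati root, whereas in Lalat root both PPDK loci held about equal parts, 40.0% for LOC_Os05g33570 and 40.0% for LOC_Os03g31750. In GAPDH, LOC_Os04g40950 led in Lalat root with 40.3%, and LOC_Os02g38920 led in the other libraries.

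**Figure D5:**
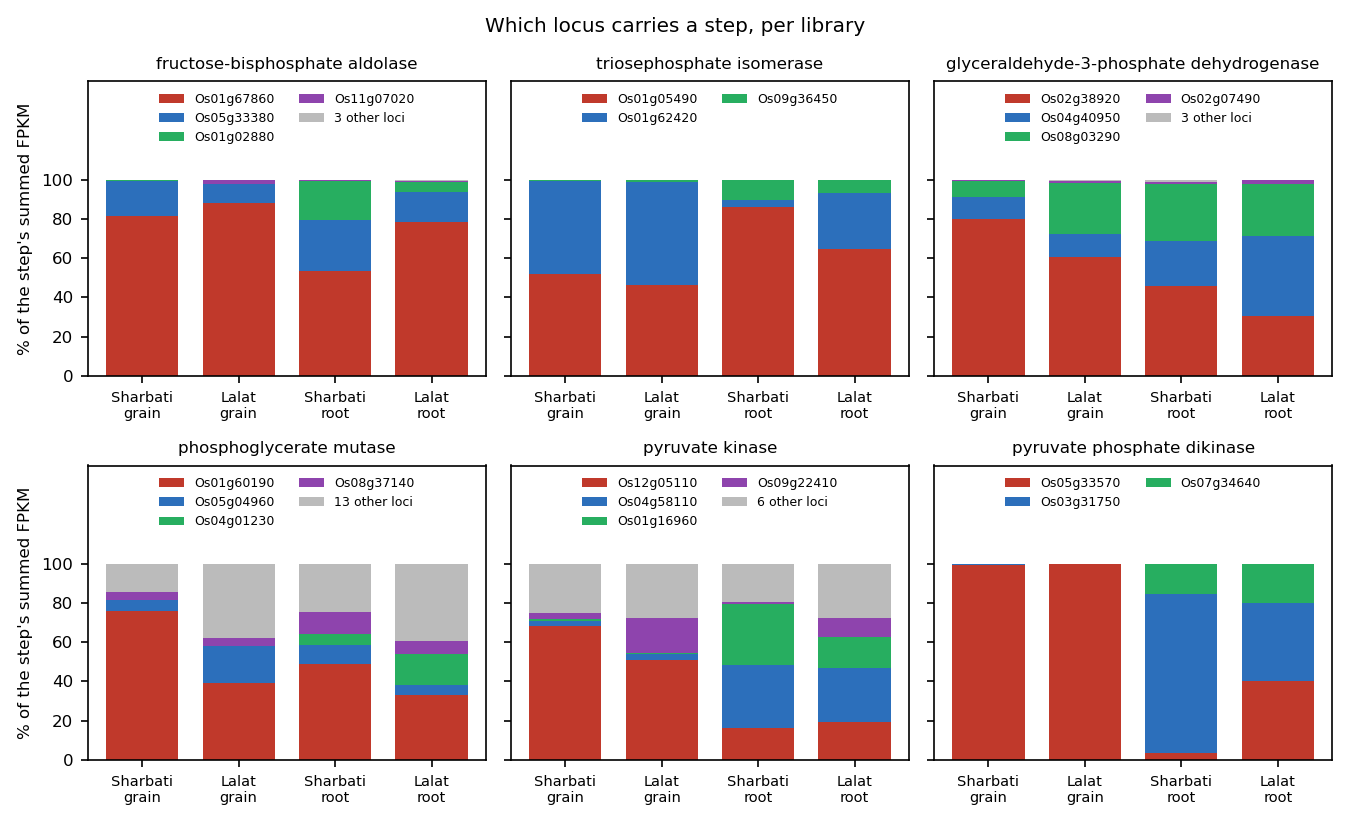
Share of a step's summed FPKM (vertical axis, %) held by its leading loci in each of the 4 libraries for 6 steps, with the remaining loci in grey. PPDK is nearly all LOC_Os05g33570 in grain (99.6% in Sharbati, 99.8% in Lalat) and mostly LOC_Os03g31750 in Sharbati root (81.3%). The PPDK regulatory protein LOC_Os07g34640 is counted in that step.

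Other genes of the pathway, 53 loci chosen by words in their descriptions, were read beside these enzymes. In grain 1 of 37 compared was at least 2-fold higher in Sharbati and 7 were lower, where 6.31% of all genes were higher and 17.4% lower. In root 2 of 38 were higher and 21 lower, where the shares of all genes were 5.51% and 46.7%. Of the 53, 13 turned out to be other kinds of protein, such as dioxygenases, and without them 1 of 30 was higher in Sharbati grain and 3 were lower. The single locus higher in grain was LOC_Os06g13810, described as the beta subunit of a pyrophosphate-dependent fructose 6-phosphate 1-phosphotransferase, an enzyme that can replace phosphofructokinase in plants. It had 162 FPKM in Sharbati grain and 75.5 FPKM in Lalat grain (ratio 1.09), and 25 FPKM in Sharbati root against 136 in Lalat root (ratio -2.40). LOC_Os06g22060, described as an alpha subunit of that enzyme, had 218 FPKM in Sharbati grain and 138 FPKM in Lalat grain (ratio 0.66). In root it was listed at 0 in Sharbati and at 0.883 FPKM in Lalat. A second alpha subunit locus, LOC_Os08g25720, had 106 FPKM in Sharbati grain and 65.9 FPKM in Lalat grain (ratio 0.68). Its root levels were 28.9 FPKM in Sharbati and 118 FPKM in Lalat (ratio -1.99). The 3 loci together stood far above the ATP-dependent phosphofructokinases, none of which passed 3.71 FPKM in a grain library. Fructose-1,6-bisphosphatase LOC_Os05g36270, which runs the step backwards, was lower, with 7.97 FPKM in Sharbati grain and 32.1 FPKM in Lalat grain (ratio -1.88).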

How the data were processed

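Poly(A) RNA of grain and root of Sharbati and Lalat was sequenced as paired-end libraries, 1 per group. FPKM values were deposited by the authors in separate tables for grain and root. Per the submitters' processing notes, the tools included Cuffdiff, Cufflinks 1.3.0, TopHat 1.3.3 and Bowtie 0.12.9, while a genome build was not given in the sources used here. The deposited tables also hold the authors' p-value and a yes or no call, made at a false discovery rate of 0.05 per the series' design text. Such calls compare a pair of libraries rather than the cultivars, and are given as deposited.

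Each distinct value of a locus was taken once, and no member had more than 1. Ratios are log2((a + 1)/(b + 1)) of FPKM, which understates differences of scarce loci, and folds are plain FPKM ratios. Loci above 0 in both libraries and at 1 FPKM or more in at least 1 were compared, and 2-fold was the threshold. No test was made. The calculation was tested on simulated data. Read totals were not used here, and the worth of 1 fragment was read from loci listed at 0 in the partner library with the most frequent deposited p-value of 0.159.

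The members, the lists and the comparisons were chosen with earlier results of these data known. Loci were named by a rule: the locus of each step with the highest mean level, the 6 highest and 6 lowest ratios between cultivars and the 4 highest and 4 lowest between organs among loci at 10 FPKM or more in 1 library, loci apart in opposite directions in grain and root, loci listed at 0 in 1 library and at 10 FPKM or more in the other, and pathway genes at least 2-fold apart and at 20 FPKM or more. The last part of the rule took 14 pathway genes, of which only LOC_Os06g13810, LOC_Os08g25720 and LOC_Os05g36270 are described above. The rest were left out, among them malic enzyme LOC_Os01g52500, glucose-6-phosphate isomerase LOC_Os03g56460 and succinate dehydrogenase LOC_Os07g04240. LOC_Os01g09460, LOC_Os01g46070, LOC_Os01g47190, LOC_Os01g53930, LOC_Os03g03720, LOC_Os04g40950, LOC_Os04g58110, LOC_Os06g22060, LOC_Os06g45710, LOC_Os08g03290, LOC_Os09g36450, LOC_Os09g38759 and LOC_Os12g04120 were named after their values were seen. Other settings tried were a pseudocount of 0.1 or 5, scaling by the median ratio or to equal totals without the 100 highest genes, other filters, a 4-fold threshold, 0 or unlisted loci set to 0, and members without the other roles. Python 3.11.15 with pandas 2.3.3, numpy 2.4.6, scipy 1.17.1 and matplotlib 3.10.9 was used.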

Additional observations from a re-analysis of the deposited data

Results flagged for a closer look

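Of the 73 loci compared in both organs, 7 (9.59%) were at least 2-fold apart in opposite directions, each higher in Sharbati grain than in Lalat grain and lower in Sharbati root than in Lalat root. Over all genes compared in both organs this held for 282 of 9959 (2.83%), in either order of directions. With 1 library per group the difference between organs was not tested.

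Their log2 ratio in grain minus that in root was 3.50 for hexokinase LOC_Os05g09500, 3.15 for glyceraldehyde-3-phosphate dehydrogenase LOC_Os02g38920 and 2.96 for malate dehydrogenase LOC_Os10g33800. It was 2.65 for pyruvate kinase LOC_Os11g05110, 2.26 for pyruvate kinase LOC_Os12g05110, 2.64 for malate dehydrogenase LOC_Os12g43630 and 2.64 for the phosphate/phosphoenolpyruvate translocator-related locus LOC_Os08g01410. The general offset between cultivars was -0.29 in grain and -0.999 in root. With both offsets removed, only 1 of the 7, hexokinase LOC_Os05g09500, was still at least 2-fold apart in both organs, at 1.31 in grain and -1.48 in root. The other 6 then stayed 2-fold apart in grain but not in root. Another 6 loci came to stand apart in opposite directions, so that the count stayed at 7 of 73, where 347 of 9959 genes (3.48%) did.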

How the results depend on the processing

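Of the alternatives run, the grain counts of 10 loci higher and 18 lower became 6 and 5 with a pseudocount of 5, 16 higher with median-ratio scaling, 2 lower with 10 FPKM in both libraries, 0 and 4 at 4-fold, and 6 and 0 with 50 FPKM in at least 1. The grain median of -0.23 turned to 0.27 with 10 FPKM in both and to 0.91 with 50 FPKM. In root, the 2 higher loci became 4 with a pseudocount of 0.1, 1 with a pseudocount of 5, with filters of 5, 50 and 10 FPKM in both and without the other roles, 0 at 4-fold, and 12 under either scaling. The 48 lower became 26 under either scaling and at 4-fold, 23 with 10 FPKM in both, 27 with 50 FPKM and 24 among loci under 10 FPKM in both grain libraries. The root median of -1.08 became -0.10 with median-ratio scaling and -0.040 with equal totals. For the filters of 10 and 50 FPKM, the loci scarce in grain and median-ratio scaling, the shares over all genes stand with the counts above. For the other settings no share over all genes is given, so those shifts cannot be assigned to these loci rather than to all genes.

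For Sharbati grain over root, 10 FPKM in both gave 10 higher, 4 lower and a median of 0.36, and 4-fold gave 9 and 26. For Lalat grain over root, the 5 higher became 3 with a pseudocount of 5, 11 with median-ratio scaling, 18 with equal totals, 2 with 10 FPKM in both and at 4-fold, 8 with 0 or unlisted loci set to 0 and 3 without the other roles. The 67 lower became 44 with equal totals and 17 with 10 FPKM in both. Its median of -1.81 became -1.22 with a pseudocount of 5, -0.61 with median-ratio scaling, -0.36 with equal totals and -0.92 with 10 FPKM in both. Between organs, the shares over all genes are given above only for the main count and for 10 FPKM in both. The shifts under the other settings therefore cannot be assigned to these loci.

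As a share of the library without its 100 highest genes, the summed level of all members had a log2 ratio of -0.11 in root and 0.14 for Lalat grain over root, where FPKM sums gave -1.163 and -1.291. By the same share citrate synthase turned to 0.0022 in root, and Lalat grain over root turned to 0.25 for aldolase, 0.13 for glyceraldehyde-3-phosphate dehydrogenase and 0.16 for triosephosphate isomerase. With median-ratio scaling, Lalat grain over root turned to 0.19 for LOC_Os01g67860 and 0.13 for LOC_Os09g22410, and with equal totals to 0.45 and 0.38 for these, 0.020 for LOC_Os02g13840 and 0.10 for LOC_Os10g08550.

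The 50 FPKM filter and the subset of loci scarce in grain were chosen after seeing the data. Counts shrink under stricter filters in part because fewer loci are compared, but the shares changed too. With 10 FPKM in both grain libraries the lower share of the loci went from 20.9% to 6.90%, where that of all genes went from 17.4% to 8.89%. The higher share went from 11.6% to 24.1%, where that of all genes went from 6.31% to 7.19%. The scalings shift the ratios of abundant loci by nearly the full offset and those of scarce loci by less, since 1 FPKM is added afterwards. The scaled counts of loci apart in opposite directions and of higher organ ratios were also chosen after seeing the data. The cause of the offsets themselves was not tested. No paired analysis was possible because each group has 1 library. Leaving out a library was not possible either, as it removes a group. The depth of Sharbati root limits every root ratio of a scarce locus.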
